A study of Mus musculus with 16 samples.

Results

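A group of 10 genes of the cytosolic and mitochondrial heat shock system was followed through mouse blastocysts treated with kinase inhibitors. The genes were Hspa1a, Hspa1b, Hspa8, Hsph1, Hsp90aa1, Dnajb1, Hspb1, Hspd1, Hspe1 and Hsf1, and every probe set whose platform annotation named exactly 1 of them was taken. This gave 22 probe sets for 9 of the 10 genes, out of 45037 probe sets measured in all samples. No probe set in the annotation used named Hsf1 alone, and Hsf1 was not analysed here. Hspa1a had 1 probe set, Hspa1b 3, Hspa8 4, Hsph1 2, Hsp90aa1 5, Dnajb1 2, Hspb1 2, Hspd1 1 and Hspe1 2. Hspa1a, Hspa1b, Hspb1 and Dnajb1 are grouped as inducible, with 8 probe sets, and the 5 other measured genes as constitutive, with 14.

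The samples were blastocysts, the embryo stage with an outer trophectoderm around an inner cell mass and a fluid cavity. Total RNA came from embryos treated with 20 µM SB203580 (an inhibitor of p38 MAP kinases), 25 µM SP600125 (an inhibitor of JNK) or 20 µM U0126 (an inhibitor of MEK, the kinase upstream of ERK), or from embryos labelled WT, for which no treatment is named. The 4 groups held 3 samples each. Replicate 1 of each group was read on a 430A and a 430B array after the small sample labelling assay, and replicates 2 and 3 on 430 2.0 arrays after two-cycle labelling. Neither the mouse strain, the length of treatment nor the number of pooled embryos is stated in the labels, nor whether WT embryos received the solvent. Separate cultures are not named for the replicates, and the p-values therefore cover only the spread among these samples, which may be technical. All differences below were taken within array type, and the 3 comparisons with WT share the same WT samples.

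Heat shock proteins are molecular chaperones. Hspa1a and Hspa1b encode the stress-inducible cytosolic HSP70, and Hspa8 encodes HSC70, its constitutive relative. Dnajb1 is an HSP40 co-chaperone that delivers clients to HSP70 and stimulates its ATPase, and Hsph1 (HSP110) is a nucleotide exchange factor for it. Hsp90aa1 encodes the cytosolic HSP90 alpha, Hspb1 the small heat shock protein HSP27, and Hspd1 with Hspe1 the mitochondrial chaperonin HSP60 and its lid HSP10. The transcription factor HSF1 binds inverted repeats of GAA in the promoters of such genes when unfolded proteins accumulate. In the mouse embryo, HSP70 is among the first products of the zygotic genome.

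The promoters are shown because the inducible genes gave the one called difference and because the Hspa1a and Hspa1b windows are nearly the same. The sequences are from RefSeq (GRCm38.p6) and cover the 250 bases before the annotated start, 5′ to 3′ on the gene's strand, with matches to GAANNTTC in capitals. Windows were found for 7 of the 10 genes, 10 windows in all. None was matched for Hspa8, Hsp90aa1 or Hsf1. The first window is on the minus strand at chr17:34972157-34972406, the second on the minus strand at chr17:34959239-34959488 and the third on the plus strand at chr5:135887669-135887918.
Hspa1a: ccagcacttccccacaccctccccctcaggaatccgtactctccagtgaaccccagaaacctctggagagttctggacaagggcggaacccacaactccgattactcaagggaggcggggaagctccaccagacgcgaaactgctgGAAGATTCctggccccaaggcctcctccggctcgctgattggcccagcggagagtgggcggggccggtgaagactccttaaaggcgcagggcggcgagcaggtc
Hspa1b: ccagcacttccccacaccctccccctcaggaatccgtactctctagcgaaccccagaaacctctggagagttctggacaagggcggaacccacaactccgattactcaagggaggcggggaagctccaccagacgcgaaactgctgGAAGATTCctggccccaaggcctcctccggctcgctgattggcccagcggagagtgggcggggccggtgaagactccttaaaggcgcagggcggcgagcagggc
Hspb1: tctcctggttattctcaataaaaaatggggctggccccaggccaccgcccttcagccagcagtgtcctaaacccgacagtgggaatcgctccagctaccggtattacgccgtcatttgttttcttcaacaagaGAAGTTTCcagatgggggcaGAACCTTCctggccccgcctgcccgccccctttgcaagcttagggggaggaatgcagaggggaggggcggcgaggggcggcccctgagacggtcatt
The Hspa1a and Hspa1b windows are identical at 247 of 250 positions, or 98.8%, and each holds GAAGATTC from 104 to 97 bases before the start. The Hspb1 window holds GAAGTTTC from 117 to 110 and GAACCTTC from 97 to 90 bases before the start.

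Hspd1 and Hspe1 are neighbours on opposite strands of chromosome 1, and 1 of the 2 Hspd1 windows shares 215 bases with the Hspe1 window. A 30-base stretch of the Hspe1 window, plus strand of chr1:55088053-55088082 and 95 to 66 bases before the Hspe1 start, holds 3 overlapping matches, shown as 1 run of capitals.
Hspe1: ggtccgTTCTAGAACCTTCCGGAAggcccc
In the three-unit form a GAANNTTC match and a TTCNNGAA match share 3 bases, and this run holds it 2 times, overlapping. The three-unit form was present in 2 of the 10 windows, which are this overlapping pair, and in 0.466% of 32851 promoter windows of the same length. GAANNTTC was present in 5 of the 10 windows and in 6.69% of all windows, and TTCNNGAA in 4 of the 10 and in 7.17%. Both read the same on the 2 strands, and either was present in 7 of the 10 and in 12.8% of all. The 2 Hsph1 windows overlap and hold the same TTCTCGAA site, and neither Dnajb1 window holds a match. The windows are therefore not independent. The counts above include the shared Hspd1 and Hspe1 stretch and the Hsph1 site 2 times each, and the nearly identical Hspa1a and Hspa1b windows.

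Signals are the deposited intensities, scaled by the authors to a trimmed mean of 500 on each array, and no level is compared between probe sets. Each error after ± is limma's standard error of a log2 change, fitted over 27022 probe sets that passed a filter on dim signal (a mean of at least 42.9 on the 430 2.0 arrays), and adjusted p-values are Benjamini-Hochberg over all of them. Of the 22 heat shock probe sets, 21 passed. The exception was Hsp90aa1 probe set 1433251_at, with signals of 40.9 and 59.8 with SB203580, 40.4 and 42.1 with SP600125, 39.5 and 6.5 with U0126, and 2.4 and 6.1 in WT for replicates 2 and 3.

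Blastocyst markers were present. All 7 trophectoderm, 5 epiblast and 5 primitive endoderm markers passed the filter, with Krt8, a trophectoderm keratin, between 33272 and 40703.4 on the 430 2.0 arrays. None of 6 measured cumulus and granulosa markers passed, against 1 of 5 for uterine and oviduct epithelium and 2 of 6 for blood and immune cells. Arrays of 1 type correlated at 0.932 to 0.958 over log2 signals. The actin 3′ to 5′ ratio, which reads RNA quality and the length of the labelled product, spanned 1.58 to 1.75 on the 430 2.0 arrays, but on the 430A arrays of replicate 1 it was 2.81 with SB203580, 3.66 with SP600125, 1.62 with U0126 and 2.47 in WT. The GAPDH 3′ to 5′ ratio on the 430 2.0 arrays ranged over 2.84 to 4.80, with 4.80 and 3.05 in WT replicates 2 and 3. Their part in the results was not tested. In RNA from whole embryos, fewer cells of a type and less RNA per cell cannot be told apart.

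**Figure D1:**
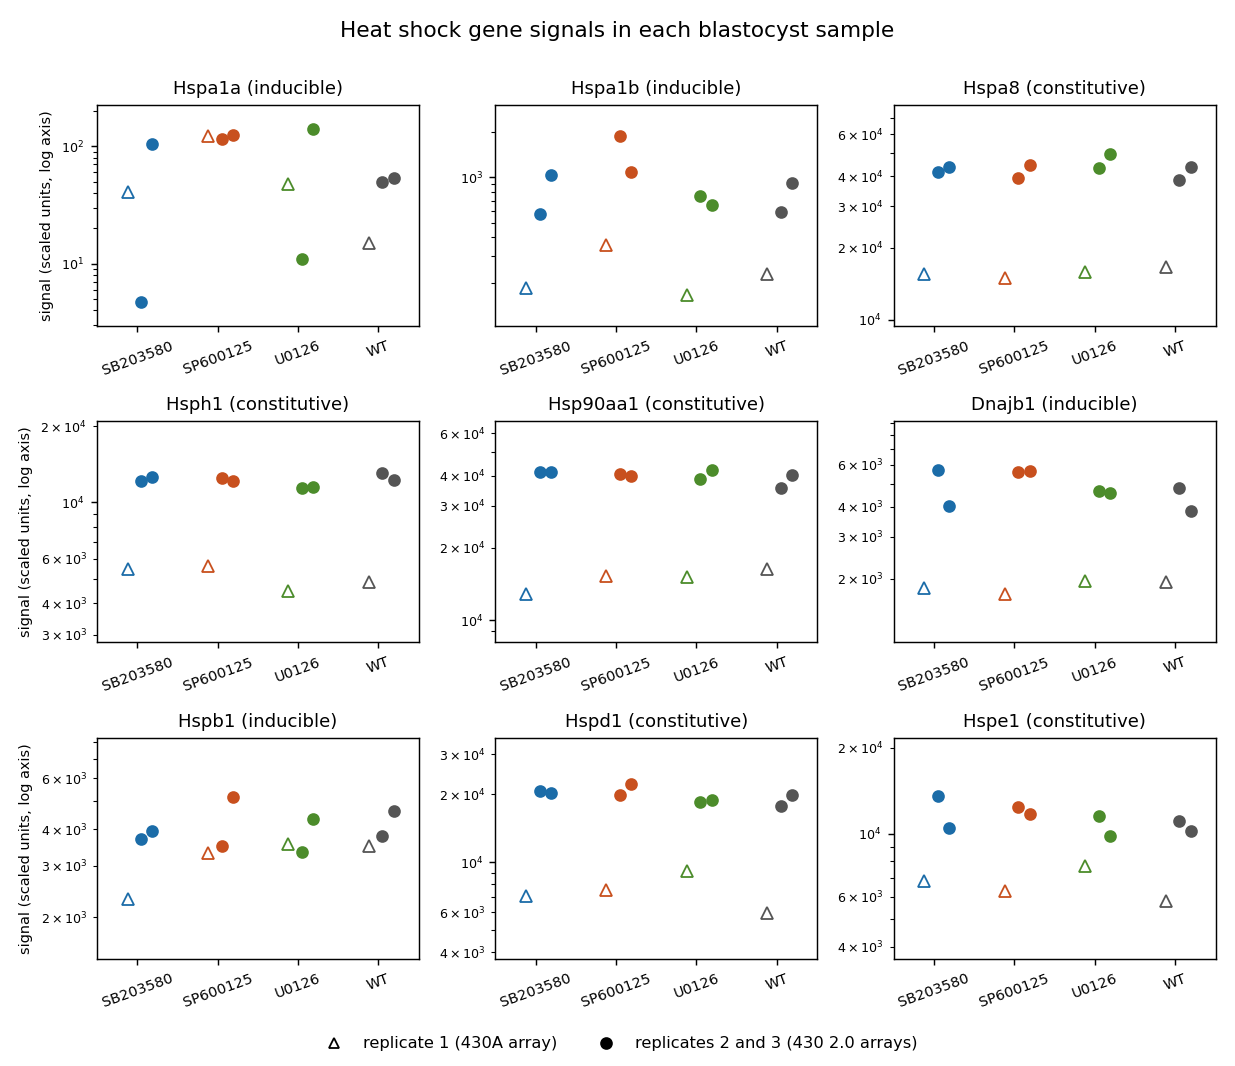
Signal of the representative probe set of each gene (the brightest on the 430 2.0 arrays) in every sample, on log axes in scaled units, with a scale of its own per panel. Open triangles are replicate 1 on the 430A array and filled circles replicates 2 and 3 on 430 2.0 arrays. Hspa1b is highest with SP600125 on both array types, while the groups of Hspa8 and Hsp90aa1 lie close together.

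Against WT, none of the 21 heat shock probe sets passed the test with any inhibitor. The count was 0 of 21 with SB203580, where 0.389% of all probe sets tested were called, 0 of 21 with SP600125 (0.592% of all called) and 0 of 21 with U0126 (0.448%). At an unadjusted p under 0.05, 1 of 21 passed with SB203580 (9.36% of all), 3 with SP600125 (8.52%) and 1 with U0126 (12%, limma in each case). Between inhibitors, 0 of 21 were called for SB203580 against SP600125 (0.788% of all), with 2 of 21 at an unadjusted p under 0.05 (10.6% of all), and 0 of 21 for SB203580 against U0126 (1.37%), with 0 of 21 at an unadjusted p under 0.05 (13.3%). SP600125 against U0126 gave 2 of 21, both probe sets of Hspa1b and both higher with SP600125, where 2.93% of all probe sets were called and 1.44% were called higher. The same 2 passed at an unadjusted p under 0.05 (17.4% of all).

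The inducible HSP70 genes carried the largest differences among the 9 genes in the comparisons with SP600125. Probe set 1452318_a_at of Hspa1b, its brightest, had signals of 357.2, 1870.8 and 1076.7 with SP600125 in replicates 1, 2 and 3, against 166.3, 749.0 and 658.7 with U0126. SP600125 lay above U0126 on each array type, by 1.02 ± 0.26 on the log2 scale (adjusted p = 0.0404, limma), and the 3 SP600125 samples exceeded the U0126 mean of their array type by 1.05, 1.40 and 0.61. Probe set 1427127_x_at of Hspa1b had 362.3, 735.0 and 550.4 with SP600125, against 147.3, 329.2 and 357.7 with U0126, a difference of 0.99 ± 0.26 (adjusted p = 0.0471, limma). The third Hspa1b probe set, 1427126_at, had 129.2, 351.9 and 236.6 with SP600125, against 85.0, 214.9 and 191.7 with U0126. Its difference of 0.50 ± 0.29 did not pass (adjusted p = 0.39, limma). These probe sets belong to 1 gene and are not independent of each other. The doses also differed, 25 µM for SP600125 and 20 µM for U0126.

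Both Hspa1b calls stood near the threshold. That for 1452318_a_at was lost without SP600125 replicate 1 (adjusted p = 0.106, limma), SP600125 replicate 2 (0.191), U0126 replicate 1 (0.106), U0126 replicate 2 (0.0644) or U0126 replicate 3 (0.11), and its difference ranged over 0.79 to 1.22 over all 12 omissions. That for 1427127_x_at was lost without any one of the SP600125 or U0126 samples, and also without SB203580 replicate 1 (adjusted p = 0.056), WT replicate 2 (0.0598) or WT replicate 3 (0.0535). Its difference ranged over 0.88 to 1.14 over the 12 omissions. Replicate 1 of the 2 groups had actin 3′ to 5′ ratios of 3.66 with SP600125 and 1.62 with U0126 on the 430A arrays. The GAPDH ratios there were 3.46 and 2.61. The part of RNA quality in the Hspa1b differences was not tested. On the 430 2.0 arrays alone the differences were 1 for 1452318_a_at and 0.87 for 1427127_x_at. Neither passed (adjusted p = 0.138 and 0.202, limma with 2 samples a group).

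Against WT, the Hspa1b signals were also higher with SP600125 but did not pass the test. Probe set 1452318_a_at had 357.2, 1870.8 and 1076.7 with SP600125, against 231.2, 587.0 and 907.9 in WT. Within each array type every SP600125 sample lay above every WT sample, the closest pair being 1076.7 and 907.9 in the third replicates. The difference was 0.83 ± 0.26 on the log2 scale, a fold of 1.78 with a 95% interval of 1.22 to 2.59 (unadjusted p = 0.00472, adjusted p = 0.244, limma). For 1427127_x_at, WT had 156.6, 307.0 and 430.6, and the difference of SP600125 from WT was 0.91 ± 0.26, a fold of 1.87 with an interval of 1.29 to 2.73 (adjusted p = 0.182, limma). For 1427126_at, WT had 100.4, 179.9 and 192.7, and the difference was 0.51 ± 0.29 (adjusted p = 0.694, limma). None of the 3 overlapped WT within array type.

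The only Hspa1a probe set, 1452388_at, was dim and scattered. It had 122.7, 114.4 and 123.7 with SP600125, 40.7, 4.7 and 105.1 with SB203580, 47.8, 10.9 and 140.4 with U0126, and 15.0, 50 and 53.9 in WT. The SP600125 samples lay above WT on both array types, whereas with SB203580 and U0126 replicate 2 was below and replicate 3 above both WT samples of that array type. The difference of SP600125 from WT was 1.45 ± 0.71 (adjusted p = 0.61, limma), with a fold interval of 0.967 to 7.72. At this dim signal the size depended on the constant added before log2, with 0.95 for a constant 4 times as large and 1.77 for a constant of 1. Hspa1a and Hspa1b are closely related genes, and a probe set for one may read the other. Transcript and probe sequences were not compared, so how the signal divides between the 2 genes is uncertain. Over the 12 samples, centred within array type, 1452388_at correlated with the Hspa1b probe sets at 0.42 to 0.70, and the Hspa1b probe sets with each other at 0.77 to 0.92.

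**Figure D2:**
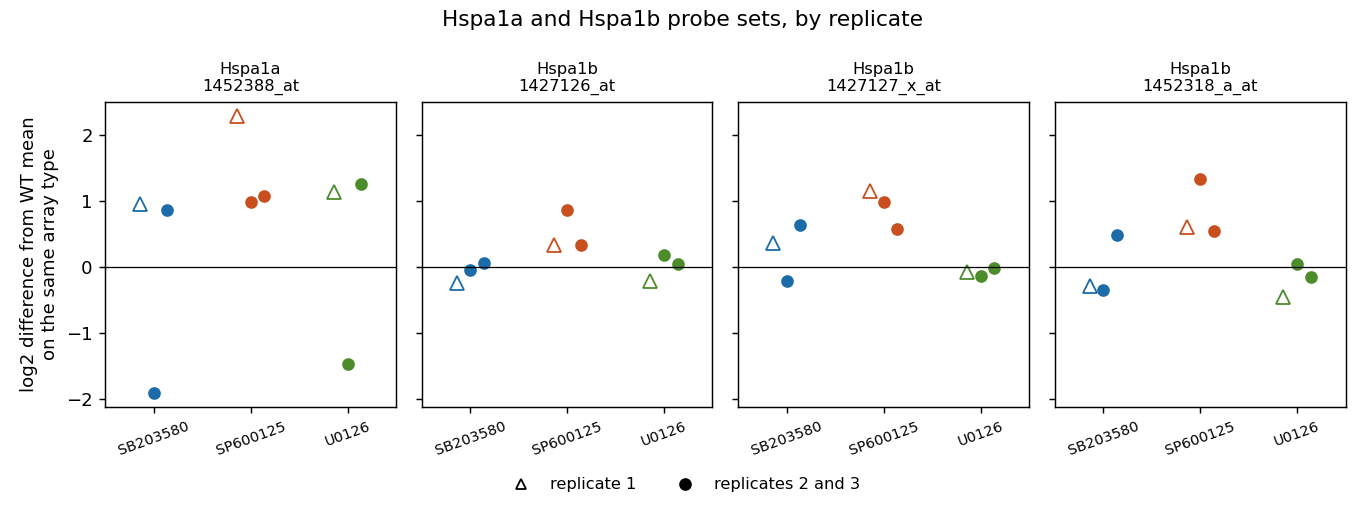
Log2 difference of each sample from the WT mean of the same array type, for the 4 probe sets of Hspa1a and Hspa1b. Open triangles are replicate 1 and filled circles replicates 2 and 3, and all SP600125 points lie above 0, whereas the other groups scatter on both sides or near 0.

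With SB203580 and U0126, Hspa1b was near WT. Probe set 1452318_a_at had 186.8, 570.6 and 1034.0 with SB203580 and 166.3, 749.0 and 658.7 with U0126. The log2 differences from WT were -0.05 with SB203580 and -0.19 with U0126, each with a standard error of 0.26, and both groups overlapped WT. The difference of SB203580 from SP600125 was -0.88 ± 0.26 at this probe set (adjusted p = 0.15, limma), and -0.64 ± 0.26 at 1427127_x_at (adjusted p = 0.353, limma), and neither passed.

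Neither of the other 2 inducible genes passed against WT. Dnajb1, probe set 1416755_at, had 1832.2, 5712.5 and 4035.6 with SB203580, 1725.6, 5607.3 and 5669.8 with SP600125, 1950.8, 4646.6 and 4560.0 with U0126, and 1938.6, 4814.2 and 3841.6 in WT. With SP600125 both 430 2.0 samples were above WT but the 430A sample was below, for a difference of 0.20 ± 0.15 and a fold interval of 0.929 to 1.43. The intervals for Dnajb1 were 0.851 to 1.31 with SB203580 and 0.845 to 1.30 with U0126. Hspb1, probe set 1422943_a_at, had 2302.1, 3704.2 and 3939.6 with SB203580, 3317.9, 3518.8 and 5168.4 with SP600125, 3565.8, 3353.1 and 4360.0 with U0126, and 3497.5, 3807.0 and 4622.6 in WT. Its lowest value, 2302.1, was the 430A sample with SB203580. The SB203580 difference of -0.29 ± 0.16 did not pass (fold interval 0.646 to 1.04) and was -0.13 without SB203580 replicate 1. The second Hspb1 probe set, 1425964_x_at, lay below WT with SB203580 without overlap on both array types, with a difference of -0.24 ± 0.15 that did not pass (adjusted p = 0.679, limma). For 1422943_a_at the intervals were 0.785 to 1.26 with SP600125 and 0.748 to 1.2 with U0126. Hspa1b and Hspb1, which both carry GAANNTTC before the start, thus differed from WT with SP600125 by 0.83 and by -0.01 on the log2 scale. The difference between these 2 genes was not tested.

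Hspa8 and Hsp90aa1, cytosolic chaperones grouped here as constitutive although HSP90 alpha is known as the stress-responsive HSP90, had differences near 0 at their brightest probe sets. Hspa8, probe set 1455789_x_at, had 15617.7, 41754.1 and 43639.7 with SB203580, 15025.9, 39432.8 and 44662.2 with SP600125, 15905.6, 43500.5 and 49797.8 with U0126, and 16624.7, 38407.8 and 43631.2 in WT. The 4 groups of Hspa8 overlapped on the 430 2.0 arrays, and the 95% fold intervals against WT were 0.88 to 1.15 with SB203580, 0.859 to 1.13 with SP600125 and 0.938 to 1.23 with U0126. Hsp90aa1, probe set 1437497_a_at, had 12901.6, 41288.9 and 41425.8 with SB203580, 15275.4, 40548.6 and 39912.8 with SP600125, 15116.7, 38820.4 and 42114.6 with U0126, and 16338.9, 35553.3 and 40362.9 in WT. Its intervals were 0.85 to 1.13 with SB203580 and 0.883 to 1.17 with SP600125 and with U0126. Hspa8 has many processed pseudogene copies, and a probe set ending in _x_at can read several of them, so its signal is that of the sequence family.

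One further probe set of each of these genes differed from WT at an unadjusted p under 0.05 with 1 inhibitor (limma), without passing after adjustment. Hspa8 probe set 1431182_at had 242.1, 691.7 and 740.2 with SB203580, against 169.3, 377.7 and 602.4 in WT. SB203580 did not overlap WT on either array type at this probe set, and the difference of 0.54 ± 0.23 passed only before adjustment (unadjusted p = 0.03, adjusted p = 0.442, limma). Hsp90aa1 probe set 1426645_at had 11729.8, 36433.8 and 41230.4 with U0126, against 10775.3, 31044.9 and 32683.7 in WT, again without overlap. The difference was 0.23 ± 0.09 (unadjusted p = 0.0236, adjusted p = 0.326, limma). At 1431182_at the differences were also above 0 with SP600125 (0.38 ± 0.23) and U0126 (0.35 ± 0.23). At 1426645_at they were 0.11 ± 0.09 with SB203580 and 0.15 ± 0.09 with SP600125, the latter without overlap. Hsp90aa1 probe set 1433251_at, which was not tested, lay above WT without overlap on both array types with all 3 inhibitors.

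Hsph1, the HSP110 exchange factor, had 5469.1, 12157.3 and 12597.6 with SB203580, 5590.5, 12545.9 and 12142.2 with SP600125, 4466.7, 11395.4 and 11547.9 with U0126, and 4825.8, 13104.2 and 12309.3 in WT, at probe set 1425993_a_at. The U0126 samples were the lowest on both array types, and their difference from WT, -0.13 ± 0.09, did not pass (adjusted p = 0.604, limma). The second Hsph1 probe set, 1423566_a_at, differed in its pattern, with 1052.1, 2711.8 and 3069.9 for SP600125, against 693.6, 1806.7 and 3144.7 in WT. WT replicates 2 and 3 were far apart there, and the difference of 0.38 ± 0.18 passed only before adjustment (unadjusted p = 0.0455, adjusted p = 0.572, limma). The 2 probe sets therefore gave differences of 0.04 and 0.38 for the same gene with SP600125. With SB203580 they gave 0.04 and 0.36, and with U0126 -0.13 and 0.20.

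The mitochondrial chaperonin genes had differences above 0 with all 3 inhibitors at their representative probe sets, and none passed the test. Hspd1, probe set 1426351_at, had 7098.7, 20727.9 and 20220.9 with SB203580, 7565.4, 19929.1 and 22249.8 with SP600125, 9191.0, 18474.6 and 18774.4 with U0126, and 5989.1, 17655.7 and 19843.9 in WT. The WT sample was the lowest of the 4 on the 430A array. SB203580 and SP600125 did not overlap WT, while on the 430 2.0 arrays U0126 did. Differences were 0.17, 0.23 and 0.20 with SB203580, SP600125 and U0126 (SE 0.12 each), with fold intervals of 0.948 to 1.33, 0.986 to 1.39 and 0.97 to 1.36. Hspe1, probe set 1450668_s_at, had 6839.0, 13598.3 and 10465.0 with SB203580, 6293.5, 12360.3 and 11685.1 with SP600125, 7691.3, 11532.1 and 9826.7 with U0126, and 5809.5, 11067.8 and 10187.6 in WT. Its differences were 0.19, 0.16 and 0.14 (SE 0.12 each). The second Hspe1 probe set, 1422579_at, gave 0 with SB203580, 0.06 with SP600125 and -0.16 with U0126 (SE 0.14 each). With U0126 the differences rested on replicate 1. Its samples differed from WT by 0.62, -0.02 and 0 at Hspd1 and by 0.40, 0.12 and -0.11 at Hspe1, and without U0126 replicate 1 the differences were 0.02 and 0. When arrays were divided by their median, the U0126 differences became -0.01 for Hspd1 and -0.04 for 1450668_s_at of Hspe1.

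**Figure D3:**
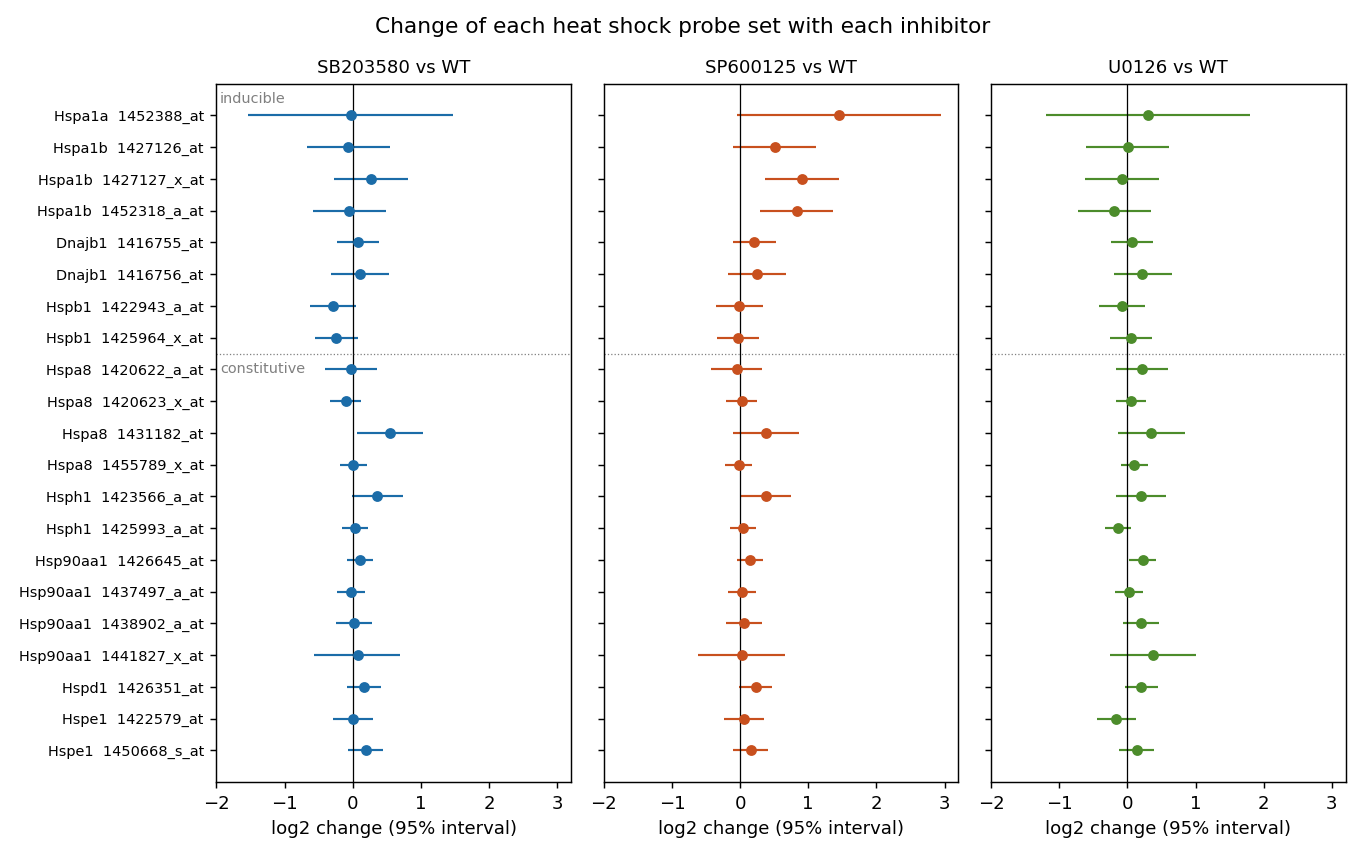
Log2 change against WT with its 95% interval for the 21 tested probe sets, inducible genes above the dotted line and constitutive genes below it. The Hspa1a and Hspa1b intervals are shifted to the right in the SP600125 panel, and the representative Hspa8, Hsp90aa1, Hspd1 and Hspe1 probe sets have short intervals that include 0. Constitutive intervals that exclude 0 are Hsp90aa1 1426645_at with U0126, Hspa8 1431182_at with SB203580 and Hsph1 1423566_a_at with SP600125.

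Counted together, 17 of the 21 probe sets had a log2 change above 0 with SP600125 and their median was 0.15, beside 49.6% above 0 and a median of 0 for all probe sets tested. These probe sets read 9 genes, of which 7 were above 0 at their representative probe set. The count was 14 of 21 without SP600125 replicate 1 (median 0.09) or WT replicate 2 (median 0.11), and 20 without SP600125 replicate 2 (median 0.14). With SB203580, 12 of 21 were above 0 (51.2% of all) and the median was 0.02, beside 0.01 for all. With U0126, 16 of 21 were above 0 (57% of all) and the median was 0.10, beside 0.06 for all, but with arrays divided by their median 9 of 21 were above 0 and the median was -0.08, beside -0.13 for all. In SP600125 samples, 7 of 21 probe sets lay above WT without overlap on both array types (11% of all) and 0 below (11.5%). Those 7 were the 4 of Hspa1a and Hspa1b and 1 each of Hsp90aa1, Hspd1 and Hspe1. With SB203580 2 lay above (11.6% of all) and 1 below (11.9%), and with U0126 1 above (14%) and 2 below (9.14%), shares near or under those of all probe sets.

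The split between inducible and constitutive genes followed the HSP70 genes. With SP600125 the mean log2 difference from WT over the 4 inducible genes was 0.66, 0.61 and 0.58 in replicates 1, 2 and 3, and over the 5 constitutive genes 0.08, 0.07 and 0.10. Inducible minus constitutive was thus 0.58, 0.54 and 0.48, a mean of 0.53. With SB203580 it was -0.05, -0.62 and 0.23, and with U0126 0.03, -0.42 and 0.27, so that both groups lay on either side of 0. Hspa1a weighed heavily in these means. Without it the SP600125 values were 0.04, 0.42 and 0.31 (0.26 ± 0.20, SD, n = 3), those of SB203580 -0.37, -0.16 and 0.04, and those of U0126 -0.28, -0.07 and -0.04. No test was made of these means, since they run over a chosen list. The grouping does not follow the promoter matches, which windows of the constitutive Hspd1, Hspe1 and Hsph1 hold and those of the inducible Dnajb1 do not.

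**Figure D4:**
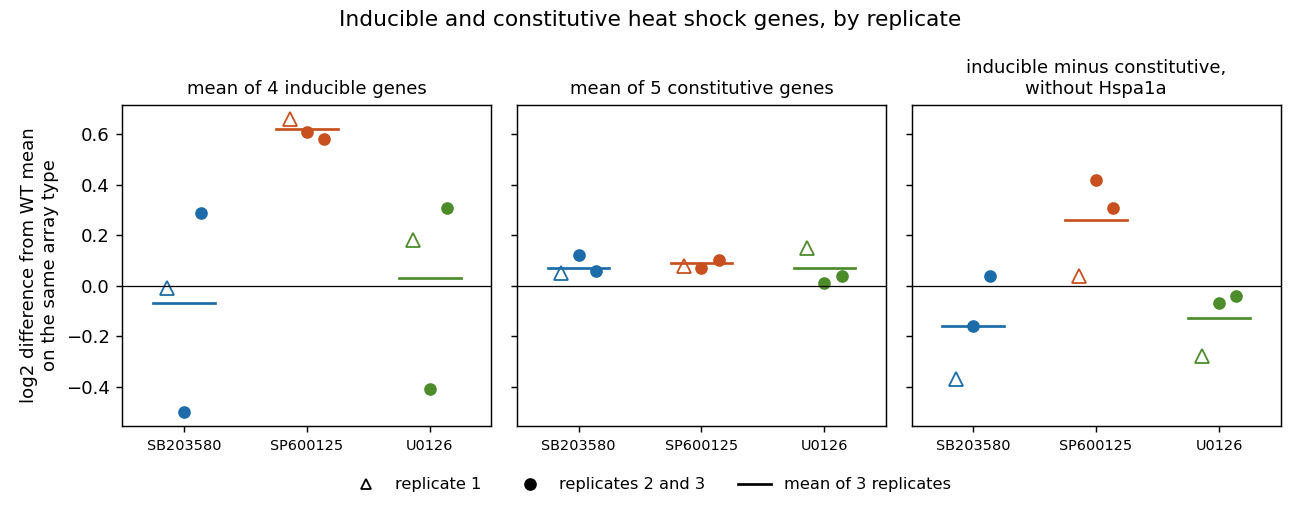
Log2 difference of each sample from the WT mean of the same array type, averaged over the 4 inducible genes (left) and the 5 constitutive genes (middle), and inducible minus constitutive without Hspa1a (right). Lines are means of 3 replicates, and with SP600125 they lie at 0.62 for the inducible genes, 0.09 for the constitutive genes and 0.26 for the difference without Hspa1a.

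Other genes of the response were examined through lists, which were chosen with earlier results of these data known. Of 14 genes known to respond to HSF1, 12 were tested. None was called higher against WT with any inhibitor, and 1 of 12 was called lower with SB203580 (0.389% of all probe sets called), 1 with SP600125 (0.592%) and 0 with U0126 (0.448%). Changes above 0 were found for 4 of the 12 with SB203580, 7 with SP600125 and 6 with U0126. Cryab, the small heat shock protein alpha B-crystallin, fell with SB203580, to 286.3, 997.7 and 1199.6, against 826.3, 2917.3 and 3122.2 in WT. Every SB203580 sample lay below WT on its array type, with log2 differences of -1.49, -1.58 and -1.32, and the change was -1.47 ± 0.19 (adjusted p = 0.00207, limma). Cryab had 481.9, 1795.0 and 1821.3 with SP600125 and 341.0, 1597.2 and 2523.3 with U0126, differences from WT of -0.74 ± 0.19 and -0.81 ± 0.19 that did not pass (adjusted p = 0.108 and 0.0716, limma). Without U0126 replicate 3 the U0126 difference was -1.07 and passed (adjusted p = 0.0154, limma), as it did with arrays divided by their median (-0.98, adjusted p = 0.0236).

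Serpinh1, the collagen chaperone HSP47 of the endoplasmic reticulum, fell with SP600125. It had 551.7, 362.1 and 560.4 with SP600125, against 948.4, 1837.5 and 1479.1 in WT, with every SP600125 sample below WT on its array type. The change was -1.48 ± 0.22 (adjusted p = 0.00339, limma). Serpinh1 had 803.7, 947.1 and 929.9 with SB203580 and 757.8, 663.1 and 897.2 with U0126, also below WT on each array type. These differences of -0.61 ± 0.22 and -0.83 ± 0.22 did not pass (adjusted p = 0.347 and 0.128, limma). In replicates 1, 2 and 3 the summed signal of 5 primitive endoderm markers was 4930, 8230 and 7650 with SP600125, against 5420, 11700 and 11700 in WT. It was 5360, 9220 and 11200 with SB203580 and 4000, 6240 and 8130 with U0126. The sum of 7 trophectoderm markers was 36500, 93200 and 96200 with SB203580, against 42300, 103000 and 110000 in WT. Krt8 and Krt18, at 33272 to 40703.4 and 41432.6 to 49584.8 on the 430 2.0 arrays, make up most of that sum. The part of these cell types in the Serpinh1 and Cryab changes was not tested. Median changes over the 12 genes were -0.15 with SB203580, 0.04 with SP600125 and -0.03 with U0126, beside 0.01, 0 and 0.06 for all probe sets tested.

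No gene of the remaining lists passed against WT. Of 22 HSP70 and HSP90 family members and co-chaperones, 19 were tested, and the largest statistics were those of Dnajc3, an HSP40 protein of the endoplasmic reticulum, at -0.91 ± 0.23 with SB203580 (adjusted p = 0.12, limma) and -0.81 ± 0.23 with U0126 (adjusted p = 0.155, limma). All 13 genes of the cytosolic chaperonin TRiC and prefoldin were tested, 14 of 15 for mitochondrial folding and proteolysis, and 5 of 5 heat shock factors and regulators. In the mitochondrial list the largest was Htra2, a protease of the intermembrane space, at -0.58 ± 0.15 with SP600125 (adjusted p = 0.138, limma). Among the regulators Hsbp1, which binds HSF1, differed by 0.39 ± 0.13 with SB203580 (adjusted p = 0.277, limma), and the transcription factor Hsf2 by 0.69 ± 0.29 with U0126 (adjusted p = 0.352, limma).

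Between SP600125 and U0126, 3 of the 19 HSP70 and HSP90 family members and co-chaperones passed, beside 2.93% of all probe sets. Dnaja2, an HSP40 protein, had 31191.9, 9810.2 and 10599.9 with SP600125, against 19228.7, 7823.8 and 7055.2 with U0126 (0.54 ± 0.11, adjusted p = 0.0141, limma). Dnajb9, an HSP40 protein of the endoplasmic reticulum, had 1137.5, 2284.4 and 1889.8 with SP600125, against 704.2, 1335.7 and 1619.2 with U0126 (0.56 ± 0.15, adjusted p = 0.0475, limma). Bag5, an HSP70-binding protein, had 336.5, 1458.8 and 1809.6 with SP600125, against 808.7, 2132.1 and 2719.6 with U0126 (-0.79 ± 0.17, adjusted p = 0.0178, limma). The groups did not overlap on either array type for these 3 genes, which were picked by their calls in this comparison. Of all probe sets tested, 11.4% lay higher and 16.9% lower with SP600125 than with U0126 without overlap on both array types. Each call depended on single samples and on settings. All 3 were lost on the 430 2.0 arrays alone (adjusted p = 0.114 for Dnaja2, 0.213 for Dnajb9 and 0.164 for Bag5, limma) and without the trend (0.164, 0.151 and 0.116). Bag5 was also lost with arrays divided by their median (-0.61, adjusted p = 0.166), and Dnajb9 with a constant of 1 (0.0505) or no filter (0.0681). Dnaja2 did not pass without SP600125 replicate 1 or 3 or U0126 replicate 1 (adjusted p up to 0.0702), Bag5 without SP600125 replicate 1 or 2 or U0126 replicate 1 or 3 (up to 0.11), and Dnajb9 without 11 of the 12 samples in turn, the exception being U0126 replicate 3 (up to 0.183).

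Likeness between members varied from pair to pair. Over the 12 samples, centred within array type, the representative probe set of Hspa1b correlated with that of Hspa1a at 0.55, rank 637 of 12613 genes, and with those of the other 7 genes at -0.23 to 0.35. Among all pairs of the 9 genes the highest value was 0.68, for Dnajb1 and Hspe1. Hspd1 and Hspe1, whose promoter windows overlap, followed at 0.61, with Hspe1 at rank 296 for Hspd1, then Hsp90aa1 and Hspb1 at 0.59. The lowest was -0.57, for Hspa8 and Hsph1. The genes most like Hspa1b were Cox6b2 (r = 0.92), Rcor1 (0.91), Ccdc117 (0.88) and Hpgd (0.87). Ccdc117, for example, had 569.4, 926.9 and 747.1 with SP600125, 346.3, 549.0 and 613.6 with SB203580, 351.0, 464.0 and 483.6 with U0126, and 331.3, 401.7 and 496.0 in WT. Most like Hsph1 were Rbm8a (0.92), Kif20a (0.90), Smu1 (0.90) and Supt20 (0.89), and most like Hspd1 were Cldn7 (0.92), Triap1 (0.91), Tubb2a (0.90) and Klhdc4 (0.88). These values describe 12 samples that share groups and array types, and they are the highest of 12613 each.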

How the data were processed

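Mouse blastocyst RNA was measured on 16 Affymetrix arrays for 12 samples, 3 in each of 4 groups. Each probe set has 1 deposited intensity on a linear scale, which the authors had scaled so that the array mean, after trimming 2 percent at each end, was 500. Labelling assays and array types are per the labels. For the software and the background correction, the sources used here give no name.

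The 430A and 430B arrays of replicate 1 were joined by label number. The value 12.6 (20th percentile of the 430 2.0 values) was added and log2 taken. Probe sets with a mean under the 40th percentile on the 430 2.0 arrays were left out. Limma 3.58.1 in R 4.3.3 (lmFit, eBayes with trend, two-sided) fitted 4 groups with array type as a block, and Benjamini-Hochberg adjustment ran over 27022 probe sets, with calls at an adjusted p under 0.05. The code was tested on simulated data. The number of arrays limits the precision. Probe sets were named from the platform annotation (34945 with 1 gene, 932 with several, 9160 with none). The brightest probe set on the 430 2.0 arrays represented each gene. Named were all members, up to 3 called genes (otherwise the largest statistic) per list and comparison, and the 4 genes most correlated with Hspa1b, Hsph1 and Hspd1. Members and lists were chosen with earlier results of these data known. Alternatives covered the constant, scaling, filter, arrays, block, trend, probe set class, gene summary and omission of each sample. Replicate numbers were not used to pair samples in the main fit. Replicate 2 minus replicate 3 correlated at 0.02 to 0.09 between groups, which does not exclude shared handling.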

Additional observations from a re-analysis of the deposited data

How the results depend on the processing

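The count of 0 heat shock probe sets called held under every setting and omission run for the 3 comparisons with WT and for SB203580 against SP600125 and against U0126. For SP600125 against U0126 the 2 calls became 1 with a constant of 1 or when those with the suffix _x_at or _s_at were left out, and 0 with no filter, on the 430 2.0 arrays only, or with eBayes without trend, and ranged over 0 to 2 when single samples were left out. The mean of inducible minus constitutive genes with SP600125, 0.53, was 0.40 with the constant 4 times as large (50.4), 0.62 with a constant of 1, 0.42 with the mean over all probe sets of a gene and 0.26 without Hspa1a, a setting chosen after seeing the data. Omissions moved it over 0.50 to 0.57. Of 1427 values for single probe sets, 50 lost and 9 gained a call. A reversal was counted only where the main or the alternative fit held a call, and there were 0. Values without a call did change sign, as Hspa1a did with SB203580 (-0.68 to 0.79 over the omissions). Cryab with SB203580 (adjusted p = 0.0896) and Serpinh1 with SP600125 (0.11) lost their calls only without the trend, among the settings and omissions that hold them.

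Whether samples of the same replicate number were handled together is not settled by the low correlations between groups. With the replicate block the count for SP600125 against U0126 stayed at 2 and the other 5 counts at 0. Calls over all probe sets rose from 105 to 121 for SB203580, 160 to 183 for SP600125 and 121 to 148 for U0126 against WT. Between inhibitors they rose from 213 to 243 for SB203580 against SP600125. For SB203580 against U0126 they rose from 371 to 418, and for SP600125 against U0126 from 791 to 916.

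Counts over all probe sets moved widely with settings: 1 to 121 for SB203580, 8 to 189 for SP600125 and 2 to 153 for U0126 against WT, 130 to 918 for SP600125 against U0126, 23 to 254 for SB203580 against SP600125 and 36 to 437 for SB203580 against U0126. On the 430 2.0 arrays the median signal was 77.7 and 83 with U0126, against 61.1 and 65.7 in WT. Dividing arrays by their median moved the median change for U0126 against WT to -0.13, from 0.06 as deposited, and its calls to 15 higher and 138 lower, from 47 and 74. For SP600125 against U0126 the calls became 547 higher and 86 lower, from 389 and 402, and for SB203580 against U0126 157 and 66, from 144 and 227. The causes were not tested. Groups of 3 samples limit what could be detected, and dim probe sets such as that of Hspa1a have only broad intervals.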
